A study of Mus musculus with 4 samples.

Results

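Voltage-gated sodium and calcium channels are assembled from pore-forming subunits and smaller partners, and the mouse genes for 38 of these subunits were examined for sites where Elavl proteins touched RNA. The 38 genes were taken by name from 21900 protein-coding genes of the reference: 9 sodium channel pores, 3 sodium channel beta subunits, 10 calcium channel pores, 4 alpha2delta subunits, 4 calcium channel beta subunits and 8 members of the gamma family. Every peak that touched the span of such a gene was counted, and genes without a peak were kept. The sites came from HITS-CLIP, a method in which RNA crosslinked to a protein by ultraviolet light is pulled down with an antibody to that protein and sequenced. The material was cortex from mouse brain (3 samples) and N2A, a mouse neuroblastoma cell line (1 sample), with no treatment or genotype named. The 3 cortex samples share a single peak list, whose label carries the term 2month, and N2A has a list of its own. The degenerate linker was 25 nt long in the cortex samples and 7 nt long in the N2A sample, so linker and group cannot be told apart.

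There were 97775 peaks, each 50 or 51 nt wide, in cortex and 7335 in N2A. Each peak carries the authors' own p-value from peak calling, which was used here to order peaks within a list. No value belongs to a single sample, so there is no replicate check, no comparison was tested, and intervals are Wilson 95% intervals that cover counting error only. Read depth is unknown. In tissue, a lack of peaks cannot be told apart from a lack of the RNA, because expression was not measured, and fewer cells of a type cannot be told apart from less RNA per cell. All 4 excitatory neuron markers and all 4 oligodendrocyte markers had a cortex peak, as did 3 of 4 interneuron and 3 of 4 astrocyte markers. None of the 3 skeletal muscle, 3 photoreceptor and 3 peripheral sensory neuron markers had one. Of 4 microglia markers only P2ry12 had cortex peaks, all 8 opposite to its strand, and of 3 endothelial markers 1 did. In N2A all 4 neuroblastoma and sympathoadrenal markers had a peak, and none of the other markers did.

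Sodium channels open when the membrane depolarises and carry the rising phase of the action potential, and calcium channels turn depolarisation into calcium entry for transmitter release, gene expression and dendritic signalling. The pore subunit sets the kind of current, beta and alpha2delta subunits bring channels to the membrane and tune their gating, and several gamma subunits serve AMPA-type glutamate receptors as TARPs. The Elavl family comprises the broadly made Elavl1 and the neuronal Elavl2, Elavl3 and Elavl4, which bind U-rich RNA in introns and 3′ untranslated regions and act on splicing, stability and translation. The antibody and the age of the mice are not stated in the labels, so which Elavl proteins were pulled down is unknown here.

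Cortex peaks lay over 31 of the 38 genes (81.6%, interval 66.6 to 90.8), against 40.8% of all coding genes. The 31 genes held 699 peaks, 0.715% of the cortex list, and the spans of all 38 genes make up 0.579% of the coding span length. In N2A 1 of the 38 genes had peaks (2.63%, interval 0.466 to 13.5), against 14.5% of all coding genes. That gene was Cacna1c, the L-type pore of brain and heart, with 3 N2A peaks and 67 cortex peaks. A cortex peak with a deposited p under 1e-10 was found in 19 of the 38 genes, against 16.3% of coding genes. These backgrounds are not matched for gene length.

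**Figure D1:**
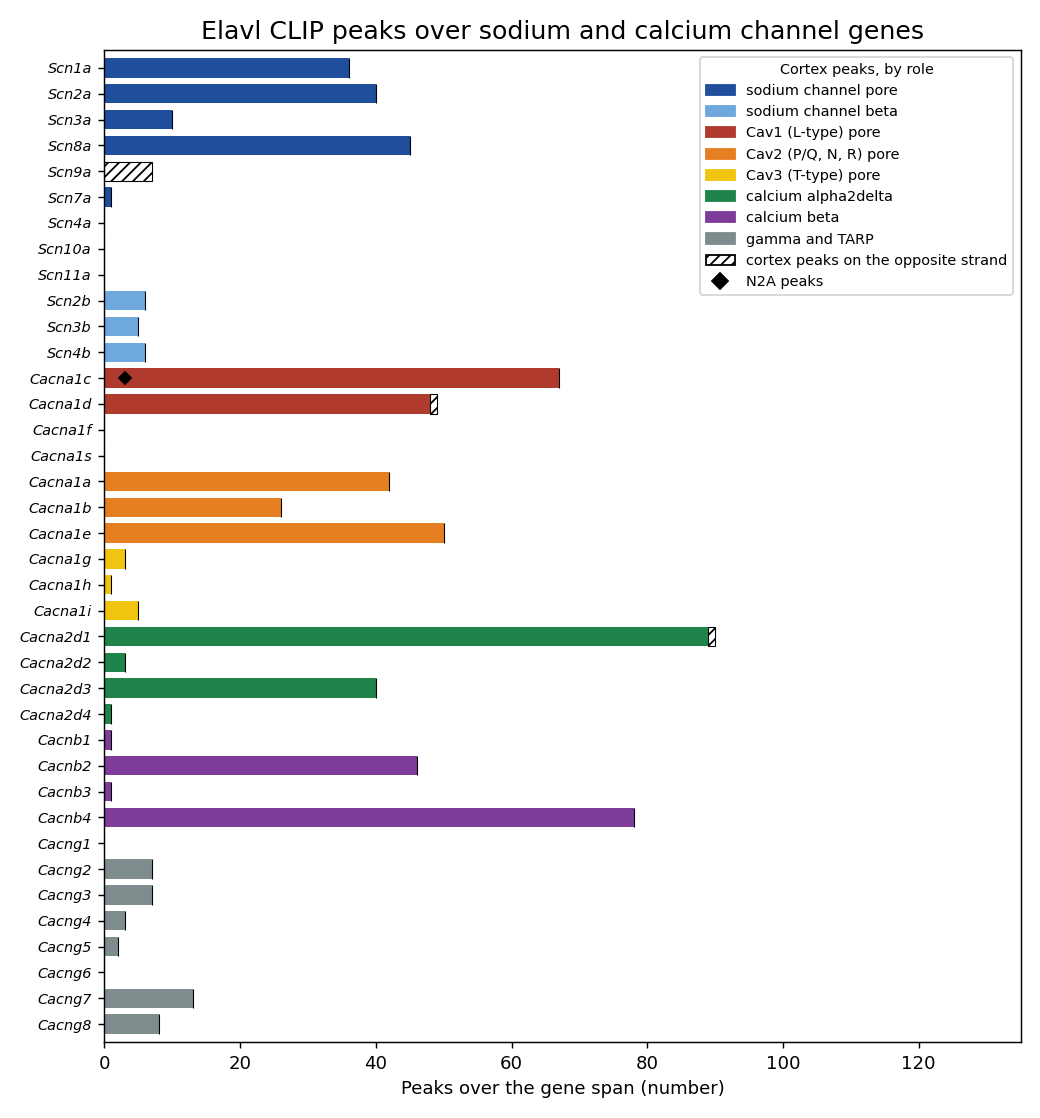
Number of peaks over each gene span, with cortex peaks as bars coloured by subunit role and N2A peaks as a diamond. Hatched bars are cortex peaks on the strand opposite to the gene: all 7 peaks over Scn9a lie there, and Cacna2d1 reaches the highest count with 90 cortex peaks.

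Long genes gather more peaks, so the counts were read within classes of span length. All 7 members over 300 kb had a cortex peak, where 89.0% of coding genes that long did, and 12 of 13 members of 100 to 300 kb had one, where 75.6% did. Of 9 members of 30 to 100 kb, 6 had a peak (background 61.0%), and of 9 members under 30 kb, 6 had one (background 27.3%). The shares over 300 kb and from 30 to 100 kb are close to their backgrounds. The 12 members of 100 to 300 kb include Scn9a, with peaks on the opposite strand only, and Cacna2d4, whose only peak was shared with another coding gene. Were both counted as genes without a peak, the share in that class would also be close to its background. The background itself, which includes opposite-strand and shared peaks, was not recounted in that way. The N2A shares of coding genes in the 4 classes, from short to long, were 9.50%, 24.3%, 25.8% and 18.1%, beside 0, 0, 0 and 1 member.

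The 7 genes with 0 cortex peaks were Scn4a, Scn10a, Scn11a, Cacna1f, Cacna1s, Cacng1 and Cacng6. All 7 belong to a list of 9 members best known from skeletal muscle, retina or peripheral sensory neurons. Scn4a and Cacna1s form the sodium and calcium pores of skeletal muscle, Cacng1 and Cacng6 are gamma subunits of muscle, Cacna1f is the L-type pore of photoreceptor terminals, and Scn10a and Scn11a are pores of nociceptors. The other 2 of that list, Scn9a and Cacna2d4, had 7 and 1 cortex peaks: the 7 lay opposite to the gene and the 1 was shared with another coding gene, as described below. All 29 members outside that list had at least 1 cortex peak, though some, such as Cacnb1 and Scn7a, had only 1. The list was chosen with earlier results of these data known, so this split depends on which members it holds. Of the 30 members with a strand in the reference, 23 had a peak on that strand (76.7%, interval 59.1 to 88.2), against 39.4% of coding genes of known strand. That background is not matched for gene length.

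The letters under a peak could be read where the peak fell inside a promoter window of RefSeq (GRCm38.p6, 250 bases before to 50 after a start site), which was available for 30 of the 38 genes. This was so for 2 cortex peaks, both upstream of an annotated internal start site and inside a longer gene span. The 30 bases of each peak with the most T are shown 5′ to 3′ as DNA on the strand of the RNA, because they show how unlike the bound sites could be. Capitals mark the longest run of T of at least 5 bases.
Cacna1e, chr1:154726121-154726150, minus strand: ttcttcttcttcttcttcTTTTTTTTTctt
Cacng2, chr15:78119415-78119444, minus strand: aacggaggcgcctcgaggaccccctccctc
The Cacna1e peak (deposited p of 2.51e-06, 183 nt upstream of the start site) was 51.0% T, with a run of 9 T. The Cacng2 peak (deposited p of 1.58e-06, 114 nt upstream of the start site) was 7.84% T and 37.3% C, with no T next to another. The letters TTTTT, searched on the strand of the RNA alone, were in the first peak and not in the second, and neither held ATTTA or TTTATTT. Over all 47 cortex peaks inside such windows on the same strand, TTTTT was present in 37 (78.7%, interval 65.1 to 88.0), ATTTA in 2 (4.26%) and TTTATTT in 8 (17.0%). In all promoter windows divided into stretches of 51 bases, the shares were 5.65%, 4.19% and 0.838%. The Cacna1e site thus had the letters found in most peaks of this kind, and the Cacng2 site did not. Whether coordinates count from 0 or from 1 is not stated, which may move the ends of the peaks by 1 base.

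Among sodium channel pores, cortex peaks were concentrated on the brain genes Scn8a (45), Scn2a (40) and Scn1a (36). Scn8a encodes the pore of the axon initial segment and nodes of Ranvier, Scn2a a pore of excitatory neurons and Scn1a a pore prominent in inhibitory neurons. Per length these 3 genes were alike, with 25.6, 27.3 and 21.2 peaks per 100 kb. Each had more peaks than 85.4% to 91.7% of the coding genes with peaks in the class of 100 to 300 kb. Scn3a, a pore mainly of the embryonic brain, had 10 peaks or 9.05 per 100 kb, and Scn7a, the sodium-sensing channel, had 1 with a p of 0.0643.

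The strongest peaks of the brain pores lay at the gene end. For Scn1a (GRCm38, chromosome 2, 66270781 to 66440837, minus strand) it had a deposited p of 6.75e-160 at 66271318 to 66271369, 0.537 kb from the end, and the next strongest, 5.93e-26, was 1.63 kb from the end. For Scn2a (chromosome 2, 65620764 to 65767447, plus strand) the strongest had a p of 1.05e-120 at 65767168 to 65767219, 0.228 kb from the end. Scn2a also carried strong peaks elsewhere, with a p of 1.33e-50 at 65748334 to 65748385, 19.1 kb from the end, and 2.50e-32 at 65620894 to 65620945, 0.130 kb after the gene start. For Scn8a (chromosome 15, 100869863 to 101045938, plus strand) 2 peaks near the end had a p of 4.75e-83 (101042997 to 101043047, 2.89 kb from it) and 1.42e-74 (101041019 to 101041070, 4.87 kb). Another strong peak (1.77e-50) lay 17.4 kb after the start, in a group of 6 peaks within 1.34 kb. In Scn3a 6 of 10 peaks lay within 5 kb of the end, among them the strongest (5.44e-11).

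Scn3a, Scn2a, Scn1a, Scn9a and Scn7a are neighbours on chromosome 2 within 1328 kb. All 7 cortex peaks over Scn9a (66480080 to 66635114, minus strand), the pore of pain-sensing neurons, lay on the plus strand. The strongest had a p of 3.41e-07 at 66523372 to 66523422. Of the 7 peaks, 4 lay inside Gm13629, a long noncoding RNA gene on the plus strand (66440880 to 66547472) that shares 67.4 kb with Scn9a, and 3 lay 0.560 to 7.20 kb past its annotated end. Scn9a itself therefore had 0 peaks on its own strand. Among coding genes of known strand with at least 7 cortex peaks, 8 of 2403 (0.333%, interval 0.169 to 0.656) had all of them on the opposite strand. Over the 30 members of known strand, 625 of 634 peaks (98.6%) lay on the strand of the gene, and 625 of 627 (99.7%) without Scn9a. The 2 others were 1 peak in Cacna2d1 (p of 0.000813) and 1 in Cacna1d (p of 0.00156), the latter over the coding gene Dcp1a, which lies on that strand.

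**Figure D2:**
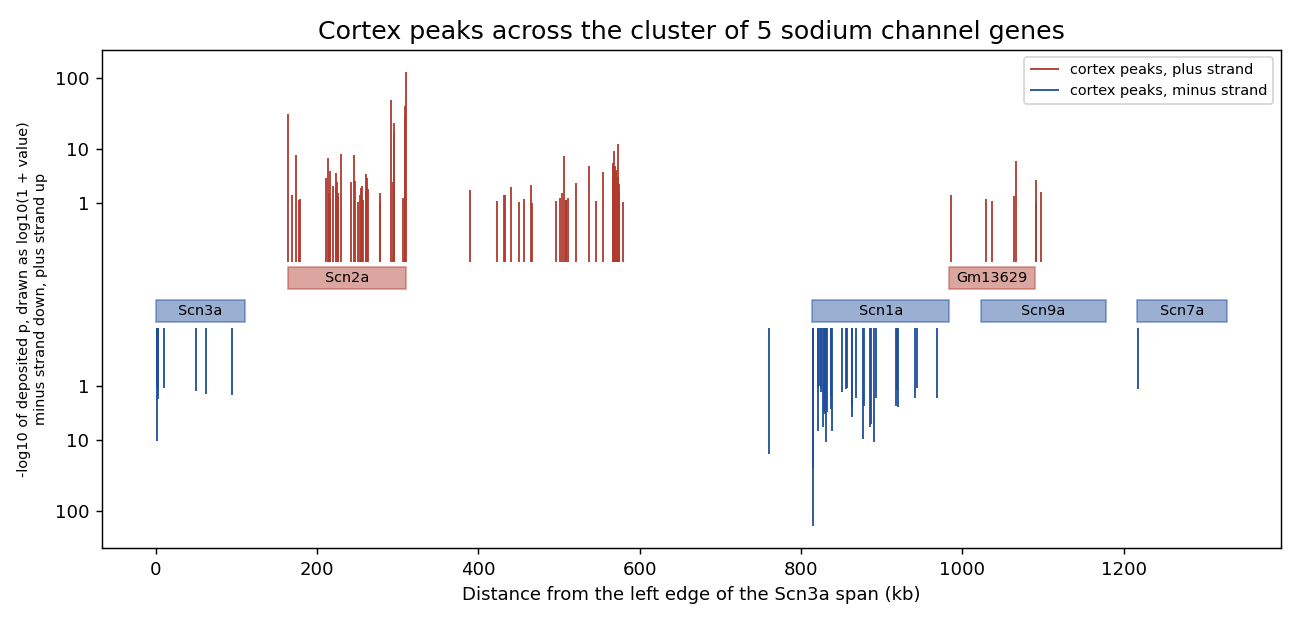
Cortex peaks across the 5 neighbouring sodium channel genes, by distance in kb from the left edge of the Scn3a span, with plus-strand peaks drawn up and minus-strand peaks down to a height that grows with -log10 of the deposited p. Boxes are gene spans coloured by strand; other coding genes between Scn2a and Scn1a are not drawn, and the 7 peaks over Scn9a are all on the plus strand, that of Gm13629.

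The sodium channel beta subunits are cell adhesion-like proteins encoded by short genes, and their peaks sat almost wholly at the gene end. Of 17 same-strand cortex peaks in the 3 genes, 16 lay within 5 kb of it, a window that covers much of spans of 12.2 to 22.4 kb. Scn2b (chromosome 9, 45117876 to 45130070, plus strand), with 6 peaks on 12.2 kb, had the highest density of all members, 49.2 per 100 kb. Its strongest peaks had a p of 2.04e-229 at 45128021 to 45128071 (2.00 kb from the end) and 2.27e-182 at 45128862 to 45128912 (1.16 kb from it). Its only peak outside that window, with a p of 8.69e-10, began 0.0370 kb after the gene start. Scn4b (chromosome 9, 45138624 to 45154155, plus strand), the subunit linked to resurgent current, had 6 peaks, all within 5 kb of the end, and 5 of them had a p under 1e-10, the strongest 5.31e-57 at 45152721 to 45152771. Scn3b had 5, all within 5 kb of the end, and the strongest p was 1.95e-05.

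L-type pores couple calcium entry to gene expression in neurons. Cacna1c (chromosome 6, 118587240 to 119197384, minus strand) had 67 cortex peaks and Cacna1d (chromosome 14, 30039941 to 30491156, minus strand) had 49, or 11.0 and 10.9 per 100 kb. Both carried their strongest sites far inside the gene. In Cacna1c the strongest had a p of 2.76e-45 at 119012839 to 119012890, 426 kb from the end and 184 kb after the start, within a group of 8 peaks over 5.25 kb. The next strongest, 6.99e-40 at 119017181 to 119017232, lay nearby, and the best within 5 kb of the end had a p of 8.85e-14. Just outside that window, 5.73 kb from the end, lay a stronger peak with a p of 3.98e-29. In Cacna1d the strongest, 2.65e-27 at 30282098 to 30282149, lay 242 kb from the end, whereas the best near the end had a p of 1.23e-06.

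The pores of the P/Q, N and R types open at presynaptic terminals and dendrites and trigger transmitter release. Cacna1e (R type) had 50 cortex peaks, Cacna1a (P/Q type) 42 and Cacna1b (N type) 26, with 10.1, 13.9 and 16.3 peaks per 100 kb, so the order by density was the reverse of that by count. Cacna1a (chromosome 8, 84338631 to 84640251) held the strongest peak of all 38 genes, with a p of 3.17e-280 at 84640134 to 84640185, 0.0660 kb from the end, and its next peak was far weaker (1.42e-23, at 84414987 to 84415037). Cacna1e (chromosome 1, 154390806 to 154884785, minus strand) had 7 peaks within 5 kb of the end, and the strongest had a p of 5.10e-67 at 154392517 to 154392567. A second strong Cacna1e site, with a p of 1.05e-53 at 154726334 to 154726385, lay 336 kb from the end, next to the T-rich site printed above. Cacna1b (chromosome 2, 24603860 to 24763200, minus strand) differed from these, since its strongest peak (5.67e-23, 24669548 to 24669598) lay 65.7 kb from the end and the best near the end had a p of 0.00874.

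T-type pores open near the resting potential and support burst firing, in the thalamus above all. They had few cortex peaks. Cacna1i had 5 (strongest p of 9.32e-07, 0.260 kb from the end), Cacna1g had 3 (strongest p of 1.71e-05) and Cacna1h had 1 (p of 0.00843). Summed over the 3 genes the density was 3.76 per 100 kb, against 12.4 for the 3 pores of the P/Q, N and R types.

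The alpha2delta subunits are extracellular proteins that raise the number of channels at the membrane, and Cacna2d1 and Cacna2d2 bind gabapentin. Cacna2d1 (chromosome 5, 15934264 to 16374511, plus strand) had 90 cortex peaks, the most of any member, and Cacna2d3 (chromosome 14, 28904943 to 29722775, minus strand) had 40 on the longest span, 818 kb. Cacna2d1 thus had 20.4 peaks per 100 kb and Cacna2d3 4.89. The strongest Cacna2d1 peak had a p of 2.43e-252 at 16372330 to 16372380, 2.13 kb from the end, and its next had 4.40e-23, 325 kb from the end. In Cacna2d3 the strongest (4.55e-18, 29163910 to 29163961) lay 259 kb from the end. Cacna2d2 had 3 peaks, with a p of 2.26e-17 for the strongest, 0.122 kb from the end. Cacna2d4, known from retina, had 1 (p of 0.0525, chromosome 6, 119316379 to 119316430, minus strand). This peak also lay in Lrtm2, a coding gene of the minus strand, and the strand of Cacna2d4 was taken from this peak alone.

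The calcium channel beta subunits are cytoplasmic proteins that bind the pore and carry it to the membrane. Cacnb4 (chromosome 2, 52428320 to 52676609, minus strand) had 78 cortex peaks and Cacnb2 (chromosome 2, 14603861 to 14988811, plus strand) 46, whereas Cacnb1 and Cacnb3, on spans of 21.5 and 16.1 kb, had 1 each. Cacnb4 had more peaks than 98.4% of the coding genes with peaks in its length class, and it held 14 peaks with a p under 1e-10, the most of any member. Its strongest peak had a p of 4.87e-127 at 52431093 to 52431143, 2.77 kb from the end, in a group of 10 peaks over 5.41 kb. The next had a p of 5.61e-107 at 52466230 to 52466280, 37.9 kb from the end. In Cacnb2 the strongest (5.85e-14, 14891767 to 14891818, 97.0 kb from the end) and the best near the end (1.14e-12) were close in p. The Cacnb1 peak had a p of 0.00351 and the Cacnb3 peak 0.00456.

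Among the gamma family, the TARPs Cacng2 (stargazin), Cacng3, Cacng4, Cacng5, Cacng7 and Cacng8 all had cortex peaks, and the muscle subunits Cacng1 and Cacng6 had 0. Cacng7 had 13 peaks and Cacng8 had 8, on spans of 36.2 and 22.2 kb, or 35.9 and 36.0 per 100 kb. Cacng6, their neighbour on chromosome 7, had none over its 12.1 kb. Cacng2 (chromosome 15, 77991919 to 78120220, minus strand) had 7, the strongest with a p of 2.25e-100 at 77994599 to 77994650, 2.68 kb from the end. A further Cacng2 peak, 5.31e-28 at 78119054 to 78119105, lay 1.11 kb after the gene start. Cacng3 also had 7, with a p of 1.82e-31 for the strongest, 0.268 kb from the end. Cacng4 had 3 and Cacng5 had 2, with strongest p-values of 0.000457 and 0.00226. Just outside the span of Cacng2, 0.0220 kb past its annotated end, lay another peak of the same strand with a p of 1.80e-21. In all, 4 peaks lay on the same strand up to 5 kb past the end of a member, the others in Cacng8 (2 peaks) and Cacnb4 (1 peak, over the coding gene Arl5a), and these are in none of the counts above.

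The number of cortex peaks moved with gene span among the 31 members with a peak (Spearman rho 0.749) and among all 8939 coding genes with a peak (0.594). These are correlations across genes, which are not independent replicates. The 10 members with the most peaks held 547 of 699 (78.3%), and the shortest of them spanned 147 kb. The median density was 10.1 peaks per 100 kb (range 0.863 to 49.2), against 12.4 in all coding genes with a peak. The members held 0.715% of the cortex peaks on 0.579% of the coding span length. That length includes coding genes without a peak, which the medians leave out, so the 2 comparisons cannot be set against each other. In genes with a same-strand peak, pooled densities within 5 kb of the end were 60.0 per 100 kb in members and 44.3 in coding genes. Elsewhere in the span they were 11.0 and 10.7. Within classes of length the picture was mixed. Median densities of members and of coding genes with a peak were 29.2 and 16.9 under 30 kb, 4.88 and 10.7 from 30 to 100 kb, 7.25 and 7.37 from 100 to 300 kb, and 11.0 and 7.00 over 300 kb.

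**Figure D3:**
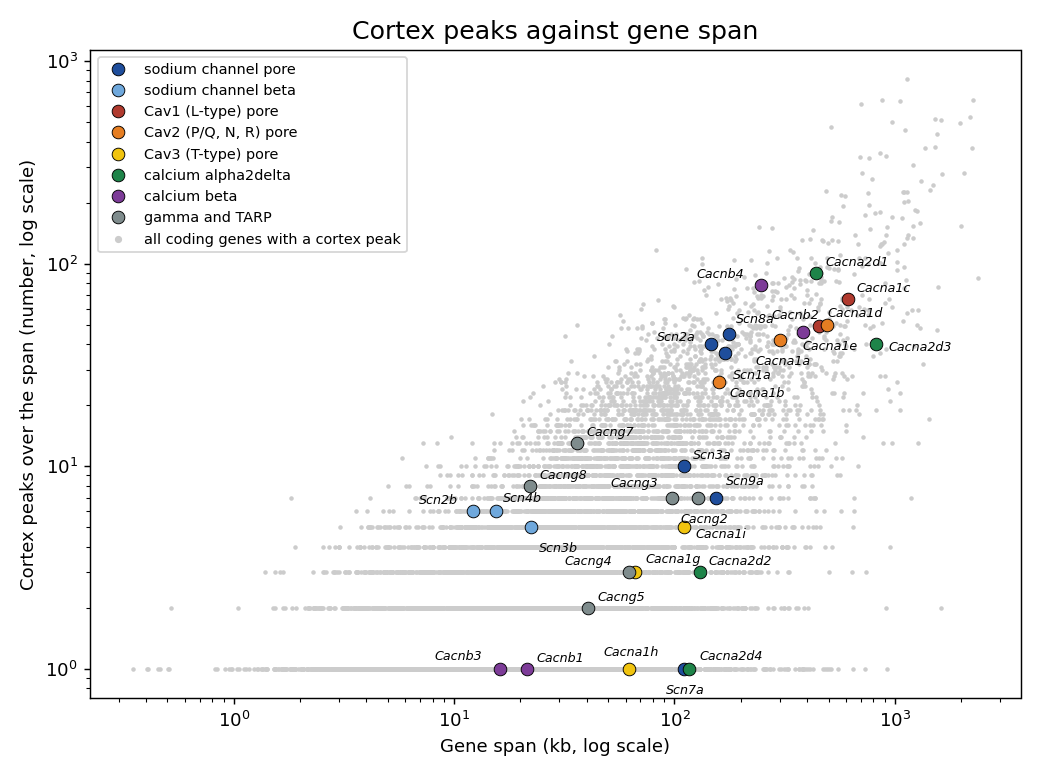
Cortex peaks over the span against span length in kb, both on log scales, for all coding genes with a cortex peak (grey) and for the 31 members with one (coloured by subunit role). Cacnb4, with 78 peaks on 248 kb, lies near the top of the grey cloud at its length, and Cacna2d2, with 3 on 130 kb, lies low in it.

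Within genes, peaks were denser and stronger near the end. In the 30 members with same-strand peaks, 90 of 690 such peaks (13.0%, interval 10.7 to 15.8) lay within 5 kb of the gene end, which made up 2.69% of the span, and the share was higher in all coding genes (18863 of 94150, interval 19.8% to 20.3%). The density in these members was 60.0 per 100 kb within 5 kb of the end and 11.0 elsewhere, a ratio of 5.43, and 27 of the 30 genes had a peak in that window (background 78.3% of coding genes with a same-strand peak). The 3 without were Cacna1h, Cacna2d4 and Cacnb3, each with 1 peak. Of the peaks near the end 38.9% (interval 29.5 to 49.2) had a p under 1e-10, against 8.50% (6.52 to 11.0) of those elsewhere. In all coding genes the density ratio was 4.12 and the shares were 25.6% and 6.28%.

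In genes over 100 kb, where introns make up most of the span, the ratio was 5.93 in 18 members and 5.10 in 1884 coding genes. The share of peaks within 5 kb of the end was 9.62% (interval 7.56 to 12.2) in these members and 8.66% in these coding genes. Of their end peaks, 42.6% (31.0 to 55.1) and 29.5% (28.3 to 30.8) had a p under 1e-10. When each span was cut into 10 equal parts, the last part held 18.0% of the peaks in members over 100 kb and 14.4% in coding genes over 100 kb, and the first held 7.73% and 13.7%. Part 4 from the start held 15.0% and 9.90%. These shares pool peaks over genes, so genes with many peaks weigh most. Much of the member count in part 4 came from Cacna1c, Cacna2d1 and Cacna1d. The difference between members and other genes was not tested, since peaks of 1 gene are not replicates.

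**Figure D4:**
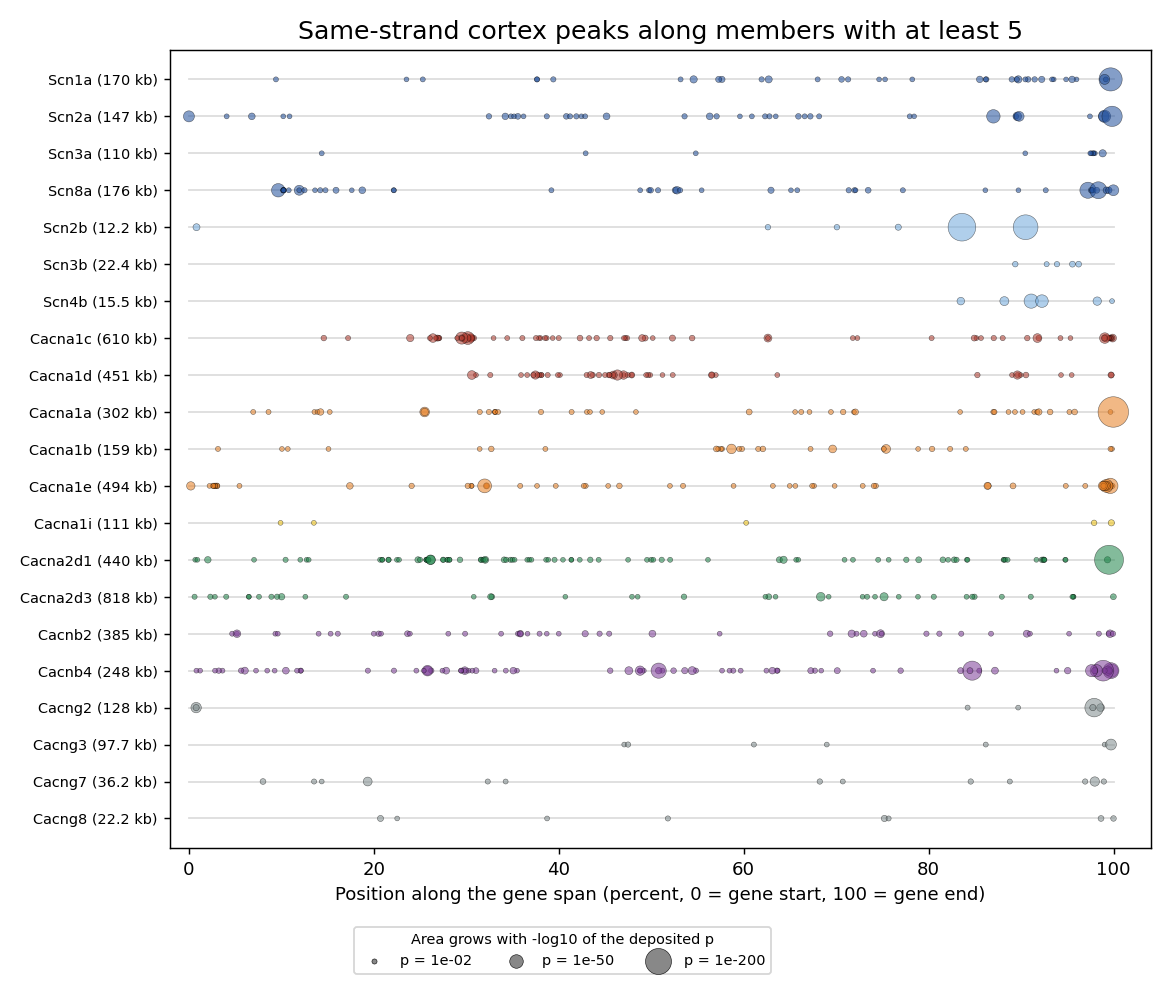
Same-strand cortex peaks of the members with at least 5, by position along the gene in percent of the span from start to end. The area of a point grows with -log10 of the deposited p. Large points sit at the right edge in Scn1a, Scn2a, Cacna1a and Cacna2d1, whereas the largest point of Cacna1c, of Cacna1d and of Cacna1b lies inside the gene.

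Members fell into those with their strongest peak within 5 kb of the end and those with it elsewhere. Of 25 members with at least 2 same-strand peaks, 17 had it near the end (68.0%, interval 48.4 to 82.8), against 60.2% of coding genes. The 17 were Scn1a, Scn2a, Scn3a, Scn8a, the 3 sodium beta subunits, Cacna1a, Cacna1e, Cacna1i, Cacna2d1, Cacna2d2, Cacnb4 and the TARPs Cacng2, Cacng3, Cacng4 and Cacng7. The 8 others were Cacna1c, Cacna1d, Cacna1b, Cacna1g, Cacna2d3, Cacnb2, Cacng5 and Cacng8. Scn3b and Scn4b had no peak outside the window, so their place among the 17 was given by that. The share of 68.0% is near this background, which is not matched for length. Over 30 kb the share was 66.7% in members (14 of 21, interval 45.4 to 82.8) and 52.4% in coding genes. Over 100 kb it was 68.8% in members (11 of 16, interval 44.4 to 85.8) and 45.8% in coding genes (790 of 1726). These differences were not tested.

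**Figure D5:**
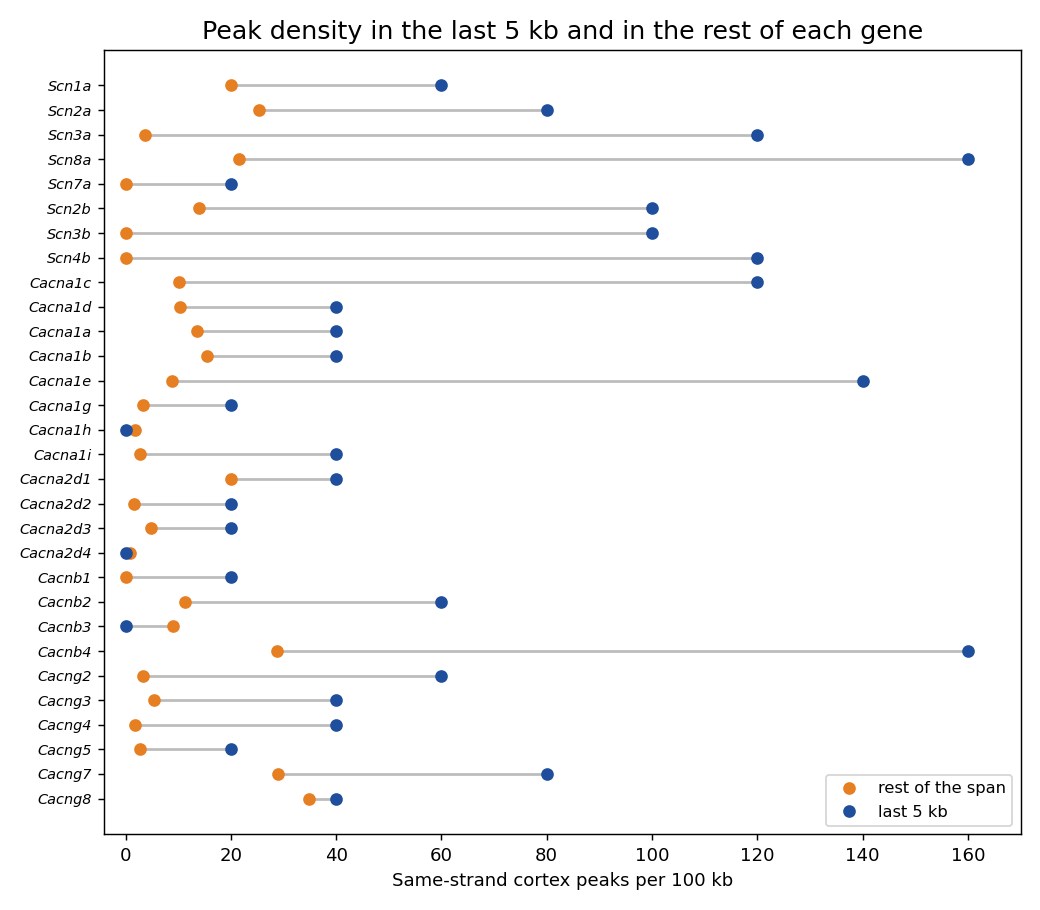
Same-strand cortex peaks per 100 kb in the last 5 kb of each gene (blue) and in the rest of its span (orange), for the 30 members with such peaks. The blue point lies to the right in 27 genes, and Scn8a and Cacnb4 reach 160 per 100 kb.

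Peaks also came in groups along the RNA. Of the 690 same-strand peaks, 291 (42.2%, interval 38.5 to 45.9) lay in groups of at least 3 with starts at most 2 kb apart, against 48.7% of such peaks in all coding genes. There were 67 groups in 18 members, and 13 of them reached the last 5 kb of the gene. The most crowded was the Cacnb4 group of 10 named above, followed by groups of 9 in Cacna1e, Cacna1c and Scn1a. The Cacna1e group (154391372 to 154396547) and that of Cacna1c (118587855 to 118593284) lay at the gene end, and that of Scn1a (66281781 to 66289545) stopped 11.0 kb before it.

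The 3 N2A peaks, all in Cacna1c on the minus strand, each overlapped a cortex peak. They lay at 118592983 to 118593034 (N2A p of 0.00229), 118939105 to 118939156 (0.0829) and 119009217 to 119009267 (6.72e-05). The cortex partners began 13, 6 and 8 nt away and shared 37, 45 and 42 nt with them, and had p-values of 3.98e-29, 5.29e-05 and 0.000911 in their own list. Over all coding genes, 42.2% of N2A peaks overlapped a cortex peak of the same strand. The first N2A site lay 5.74 kb from the gene end and the other two 352 and 422 kb from it, whereas 80.1% of N2A peaks in coding genes were within 5 kb of the end. The 30 other members with cortex peaks had 0 in N2A, and 32.6% of all coding genes with cortex peaks had N2A peaks. The N2A list is the shorter one and its depth is unknown, so a site that lacks an N2A peak is not shown to be unbound.

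A list of 30 partner genes was also examined. It holds genes for proteins tied to these channels, the Nalcn leak channel with its subunits, and Kcnma1, which is also a Kcn gene. Of the 30, 22 had a cortex peak and 7 an N2A peak, against 40.8% and 14.5% of all coding genes. The median span of the partners was 153 kb, and these shares are not matched for length. The most cortex peaks were in Fgf14 (613), Rims2 (229), Fam155a (217), Fgf12 (215) and Ank2 (192). Fgf12 and Fgf14 bind the tails of sodium channels, Rims2 ties calcium channels to the active zone, Fam155a is an auxiliary subunit of the leak channel Nalcn, and Ank2 is an ankyrin of axons. Those with N2A peaks included Ank2 (5), Rims2 (3) and Unc79 (2), the last a subunit of the Nalcn complex. Cabp1, a calmodulin-like protein, had its N2A peak (p of 0.0743) with 0 in cortex. Median densities among genes with a cortex peak were 19.8 per 100 kb for the partners, 10.1 for the channel subunits and 12 for 93 potassium channel genes (symbols that begin with Kcn), of which 56 had a cortex peak and 5 an N2A peak.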

How the data were processed

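Elavl HITS-CLIP peaks of 3 cortex samples (1 list) and 1 N2A sample (1 list) were used. Per the file headers, each list gives chromosome, start, end, strand and a p-value per peak made by the authors; the deposited p-values lie under 0.1. Per the submitters' processing notes, Novoalign was used and the build was hg19. No source used here gives the peak caller, its filters, any adjustment of p or the pooling of samples. Chromosome names are those of mouse, and 94.9% of cortex peaks touched a coding span of GRCm38.p6, against 42.0% after a shift of 1 Mb, so coordinates were read as GRCm38.

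A peak counted for every coding gene whose RefSeq span it touched by at least 1 nt. Gene strand came from RefSeq promoter windows (30 of the 38 genes) or else from most of the gene's cortex peaks (7 genes, of which Cacna1h and Cacna2d4 rest on 1 peak). Cacng1 had neither. Distances to gene start and end are to the edges of the span. Exons, untranslated regions and a genome were not used here. The assignment was tested on simulated peaks in 200 genes with a reference strand, and all 200 were recovered exactly. Peaks shared by overlapping genes and strands taken from peaks were not part of that test. Python 3.11.15, pandas 2.3.3 and scipy 1.17.1 were used.

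The members and lists were chosen with earlier results of these data known. Positions in full are given for the members with an N2A peak, the 10 with the most cortex peaks and the 10 with the lowest p, and pores without cortex peaks are named; further positions were chosen after values were seen, as was the grouping of peaks by 2 kb. The planned motif count, meant for a genome, was run on promoter windows instead. Alternatives were other p thresholds, windows, overlaps, strand and assignment rules. Some partner genes are not reported here.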

Additional observations from a re-analysis of the deposited data

How the results depend on the processing

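Of 36 alternative settings over 8 results, 29 left the value within 1.5 times the count or density, or within the interval of the share, and 3 were chosen after the lists had been seen. Using peaks with p under 0.01 lowered the cortex peaks over members from 699 to 364 and the median density from 10.1 to 5.54 per 100 kb, because fewer peaks were counted, and raised the share near the gene end from 13.0% to 19.4%. The stronger 50% of the list gave 362 peaks and a share of 19.6%. A window of 2 kb gave a share of 8.12%, and weighting each member equally gave 33.0%, since short genes then count as much as long ones. The number of members with a cortex peak was 29 to 31 of 38 in all settings, Scn7a and Cacna2d4 having no peak with p under 0.01. No paired analysis was possible because the lists hold no value per sample, so leaving out a replicate was not run either. The absence of tag counts limits precision, and depth may limit the N2A counts.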
